A study of Mus musculus with 10 samples.

Results

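The genes described here are the 10 alpha and beta tubulin genes Tuba1a, Tuba1b, Tuba1c, Tuba4a and Tuba8 (5 alpha) and Tubb2a, Tubb2b, Tubb4b, Tubb5 and Tubb6 (5 beta). They were found by symbol in a table of 56832 genes, and 10 of 10 passed the filter on low counts that left 12115 genes for testing. RNA was sequenced from cardiomyocytes of 5 animals of the Sprr1a-GFP reporter genotype, whose library titles also carry the tag Hetz. The sources used here give neither the strain background nor the element that drives the GFP. Every mouse had a myocardial infarction (a blocked coronary artery, so that part of the ventricle dies) at 12 weeks of age, and cells were freed by Langendorff perfusion 5 days later. No uninjured mice were analysed here, and both groups carry the reporter and the infarct. From each heart GFP+ cells, labelled as border zone cardiomyocytes, and GFP- cells, labelled as remote zone cardiomyocytes, were collected by flow cytometry, which gave 5 pairs of libraries. Zone is therefore read from the reporter. Mice 17C1 and 17C2 belong to one identifier series, and mice 21A4, 21A5 and 21A7 to another. The titles of the GFP+ libraries name both a DAPI-negative and a DAPI-positive sort, and those of the GFP- libraries name the DAPI-negative sort alone. DAPI is a DNA dye kept out by intact cell membranes, and this gate and the group cannot be told apart.

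Microtubules are hollow tubes built from dimers of 1 alpha and 1 beta tubulin, and each kind of subunit is encoded by several genes called isotypes. The isotypes are nearly alike in their folded core and differ mostly in their acidic C-terminal tails, where enzymes remove or restore a final tyrosine and add glutamates, and where motors and microtubule-associated proteins bind. In heart muscle cells microtubules carry cargo along the cell, anchor to the sarcomere through detyrosinated tubulin and add to the stiffness of the cell, and a denser microtubule network is known from overloaded and failing hearts.

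The ends of the coding sequences show where the alpha genes differ in a way that bears on their protein, and why 2 of the beta genes are hard to count apart. They are the last 60 coding bases before the stop codon, 5′ to 3′, from GENCODE M21 transcripts of the earlier mouse build GRCm38. Tuba1a, Tuba1b and Tuba1c encode a final tyrosine, whereas Tuba4a and Tuba8, the striated-muscle isotypes, do not. Capitals mark the last sense codon, a glutamate codon in Tuba4a and a phenylalanine codon in Tuba8.
Tuba4a: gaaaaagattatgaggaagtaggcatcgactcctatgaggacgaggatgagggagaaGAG
Tuba8: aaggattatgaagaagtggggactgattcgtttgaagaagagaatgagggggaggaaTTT

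Tubb2a and Tubb2b are shown over the same stretch, with capitals on the 3 bases in which they differ there. Tubb4b and Tubb5, the most abundant beta genes, are given beside them for comparison.
Tubb2a: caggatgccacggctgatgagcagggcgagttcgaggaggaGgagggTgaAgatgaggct
Tubb2b: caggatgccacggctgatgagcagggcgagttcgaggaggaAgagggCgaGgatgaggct
Tubb4b: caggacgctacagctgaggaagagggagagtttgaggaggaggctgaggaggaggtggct
Tubb5: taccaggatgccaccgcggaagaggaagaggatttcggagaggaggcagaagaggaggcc

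Near-identical copies limit how surely reads can be given to 1 gene, since the read length and the handling of reads that match several genes are unknown here. Over their whole coding sequences Tuba1a and Tuba1b were 98.3% identical, Tuba1b and Tuba1c 97.9%, and Tuba1a and Tuba1c 97.1%. Tubb2a and Tubb2b were 96.5% identical, with 47 differing coding bases. These copies are also neighbours: Tuba1b, Tuba1a and Tuba1c stand in a row among the coding genes of the RefSeq annotation of the earlier build, and Tubb2a stands beside Tubb2b. Of all stretches of 150 bases in the transcript, 54.7% in Tuba1a, 57.9% in Tuba1b and 46.7% in Tuba1c were found unchanged in another gene. The share was 27.9% in Tubb2a and 20.1% in Tubb2b. In Tubb4b, whose matches were to a pseudogene, it was 16.8%. Tuba8 shared 10.5% with the gene model Gm15856, and Tuba4a 45.7% with Stk16, a neighbouring gene whose transcript overlaps it. Tubb5 and Tubb6 shared 0%. Counts of Tuba1a, Tuba1b, Tuba1c, Tubb2a and Tubb2b are therefore uncertain between copies, and may be too low if reads matching several genes were dropped. Those of Tuba4a may hold reads of Stk16, or may lack reads of the overlap. Levels and shares of these genes beside the other isotypes carry this limit. Stk16 averaged 5.39 CPM (CPM is a gene's counts scaled to a common library size) in GFP+ libraries and 4.64 CPM in GFP-. The first 12 coding bases (atgcgcgagtgc in Tuba4a, atgagggaaatc in Tubb5) encode the start of the protein that TTC5 recognises on the ribosome when it marks tubulin mRNA for decay at high levels of free tubulin.

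Libraries held 12244373 to 38879965 counts, and 3417972 to 16918067 of these lay outside mitochondrial genes. Mitochondrial genes took 9.20% to 91.2% of a library, the most in the GFP+ library of mouse 21A7. All 12 cardiomyocyte markers were detected in both groups, at 3.17% to 10.5% of non-mitochondrial counts in GFP+ and 1.65% to 11.4% in GFP-, the lowest in the GFP- library of 21A7. The 10 fibroblast markers made 0.0639% to 2.08% in GFP+ libraries. In GFP- libraries they made 0.0386% and 0.0751% in mice 17C1 and 17C2 and 2.62%, 4.34% and 6.30% in mice 21A4, 21A5 and 21A7. Fibroblasts express several of these tubulins, and the part of this in the results was not tested except as given below. The 10 mesothelial markers, genes of the heart's outer lining, made 0.0195% to 0.150% in GFP+ and 0.000399% to 0.0974% in GFP-. Of 7 lymphocyte genes 1 was detected in GFP+ libraries and 4 in GFP-, and of 7 neutrophil genes 5 and 6. The lymphocyte genes Cd3e and Ms4a1 and the neutrophil gene Ly6g had 0 counts in the 10 libraries.

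With the main scaling, fitted log2 fold changes were higher in GFP+ for 8 of the 10 genes, beside 5482 of 12115 tested genes. Tuba1a, Tubb2a and Tubb4b led. The values of the striated-muscle isotypes Tuba4a and Tuba8 were negative, with the sign of Tuba4a turning when mice were paired. The direction rests on the scaling: by library size alone, Tubb4b alone stayed above 0, at 0.02. None of the 10 passed the test over all genes in the 5 mice. The mice split: in 17C1 and 17C2 the 8 genes were 2.003-fold to 34.0-fold higher in GFP+ cells, and in 21A4, 21A5 and 21A7 they were 0.653-fold to 2.79-fold of the GFP- level. Tuba4a and Tuba8 ran the other way, at 0.359-fold to 0.715-fold of the GFP- level in the 17C mice and 1.007-fold to 4.11-fold in the 21A mice. Levels below are CPM on library sizes scaled with TMM, a method that assumes that most genes do not differ, and are listed for mice 17C1, 17C2, 21A4, 21A5 and 21A7 in that order. Counts come from RNA of many cells, so fewer cells of a type and less RNA per cell cannot be told apart.

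Among the alpha genes with an encoded tyrosine, Tuba1a, which is best known from developing neurons, had 75.8, 48.3, 23.9, 26.1 and 46.2 CPM in GFP+ libraries. In the GFP- libraries of the same mice it had 2.15, 6.93, 14.3, 24.0 and 31.1 CPM. GFP+ was higher in 5 of 5 mice, by 34.0-fold in 17C1 and 6.90-fold in 17C2 but 1.09-fold to 1.66-fold in the 21A mice. The groups overlapped, because the lowest GFP+ values lay below the GFP- values of 21A5 and 21A7. GFP+ against GFP-, the log2 difference came to 1.48 ± 0.60 (SE, n = 5 against 5, edgeR adjusted p = 0.559), and to 1.68 ± 0.71 with the mouse as a block (edgeR adjusted p = 0.306).

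Tuba1b, expressed in most cell types, had 51.7, 47.6, 21.6, 17.4 and 21.7 CPM in GFP+ libraries and 6.04, 13.3, 16.7, 19.9 and 22.5 CPM in GFP- libraries. It was higher in GFP+ in 3 of 5 mice, and the GFP+ values of 17C1 and 17C2 stood well above the rest. Tuba1c, another widely expressed copy, had 17.7, 18.9, 12.6, 12.0 and 15.7 CPM against 7.72, 7.01, 6.98, 8.69 and 17.1 CPM. It was higher in 4 of 5 mice, and the GFP- library of 21A7 alone reached into the GFP+ range. Both groups of values overlapped, and the log2 fold changes were 1.02 ± 0.42 for Tuba1b (edgeR adjusted p = 0.562) and 0.69 ± 0.31 for Tuba1c (edgeR adjusted p = 0.604). With the block they were 0.96 ± 0.49 (edgeR adjusted p = 0.410) and 0.76 ± 0.28 (edgeR adjusted p = 0.251).

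Tuba4a, an alpha isotype abundant in striated muscle and platelets, had 133, 181, 168, 149.8 and 80.5 CPM in GFP+ libraries. Its GFP- libraries had 186, 343, 153, 88.5 and 19.5 CPM, so they spread far more widely than the GFP+ libraries and enclosed them. GFP+ was lower than GFP- in both 17C mice and higher in the 3 mice of the 21A series, with per-mouse log2 ratios of -0.48, -0.92, 0.14, 0.76 and 2.04. Over the 5 mice the log2 difference came to -0.15 ± 0.57 (edgeR adjusted p = 0.960), and 0.28 ± 0.43 with the block (edgeR adjusted p = 0.808), so the sign depended on the pairing.

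Tuba8, which is also enriched in heart and skeletal muscle, had 14.7, 31.1, 26.0, 19.7 and 4.802 CPM against 41.1, 64.5, 19.8, 19.5 and 1.77 CPM. As with Tuba4a, the highest values were in the GFP- libraries of the 17C mice and the lowest in the GFP- library of 21A7. Its per-mouse log2 ratios were -1.48, -1.05, 0.39, 0.01 and 1.398, and over the 5 mice the value was -0.60 ± 0.71 (edgeR adjusted p = 0.847), or -0.17 ± 0.41 with the block (edgeR adjusted p = 0.889).

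Among the beta genes, Tubb2a, prominent in neurons, had 46.1, 66.1, 51.2, 46.1 and 33.6 CPM in GFP+ libraries. Its GFP- libraries had 5.38, 6.14, 18.3, 24.0 and 34.3 CPM, so the groups met only in mouse 21A7, where the 2 libraries were alike. GFP+ was higher in 4 of 5 mice, by 1.92-fold to 10.6-fold in those 4, and the fitted log2 difference was 1.46 ± 0.48 (edgeR adjusted p = 0.442) or 1.76 ± 0.52 with the block (edgeR adjusted p = 0.170). Its neighbouring copy Tubb2b, known from migrating neurons, had 10.98, 10.1, 8.88, 14.8 and 15.2 CPM against 1.56, 1.496, 5.46, 9.85 and 12.2 CPM. Tubb2b was higher in GFP+ in 5 of 5 mice, with overlap because the GFP- values of 21A5 and 21A7 exceeded the GFP+ value of 21A4. For Tubb2b the fit gave 0.96 ± 0.55 (edgeR adjusted p = 0.685), or 1.35 ± 0.46 with the block (edgeR adjusted p = 0.213).

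Tubb4b, a widely expressed beta isotype that is also the main one of motile cilia, had the smallest spread of per-mouse log2 ratios of the 10 genes (SD 0.47). Its level was 249.8, 235, 138, 131 and 99.7 CPM in GFP+ libraries and 71.2, 117, 74.3, 71.7 and 68.0 CPM in GFP- libraries. The GFP+ libraries were higher in 5 of 5 mice, by 3.51-, 2.003-, 1.86-, 1.82- and 1.46-fold, and the groups overlapped through 1 pair of libraries, GFP- of 17C2 and GFP+ of 21A7. Its log2 fold change of 1.08 ± 0.34 had the smallest p of the 10 genes (edgeR adjusted p = 0.377). With the mouse as a block it was 1.02 ± 0.25 (edgeR adjusted p = 0.120).

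Tubb5, the beta isotype of most dividing cells, had 225, 182, 145, 104 and 237 CPM in GFP+ libraries and 37.3, 42.0, 125, 159 and 270.2 CPM in GFP- libraries. GFP+ was 6.03-fold and 4.32-fold higher in the 17C mice and between 0.653-fold and 1.16-fold of GFP- in the 21A mice. Tubb6, a beta isotype known to increase in regenerating skeletal muscle, had 35.995, 35.4, 32.04, 34.3 and 56.7 CPM against 10.5, 12.8, 28.0, 33.1 and 65.7 CPM. Both showed the highest GFP- value in mouse 21A7 and the lowest in the 17C mice, with wide overlap between groups. Their log2 fold changes were 0.49 ± 0.53 for Tubb5 (edgeR adjusted p = 0.826) and 0.37 ± 0.46 for Tubb6 (edgeR adjusted p = 0.855). With the block they were 0.79 ± 0.52 (edgeR adjusted p = 0.526) and 0.64 ± 0.34 (edgeR adjusted p = 0.423).

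**Figure D1:**
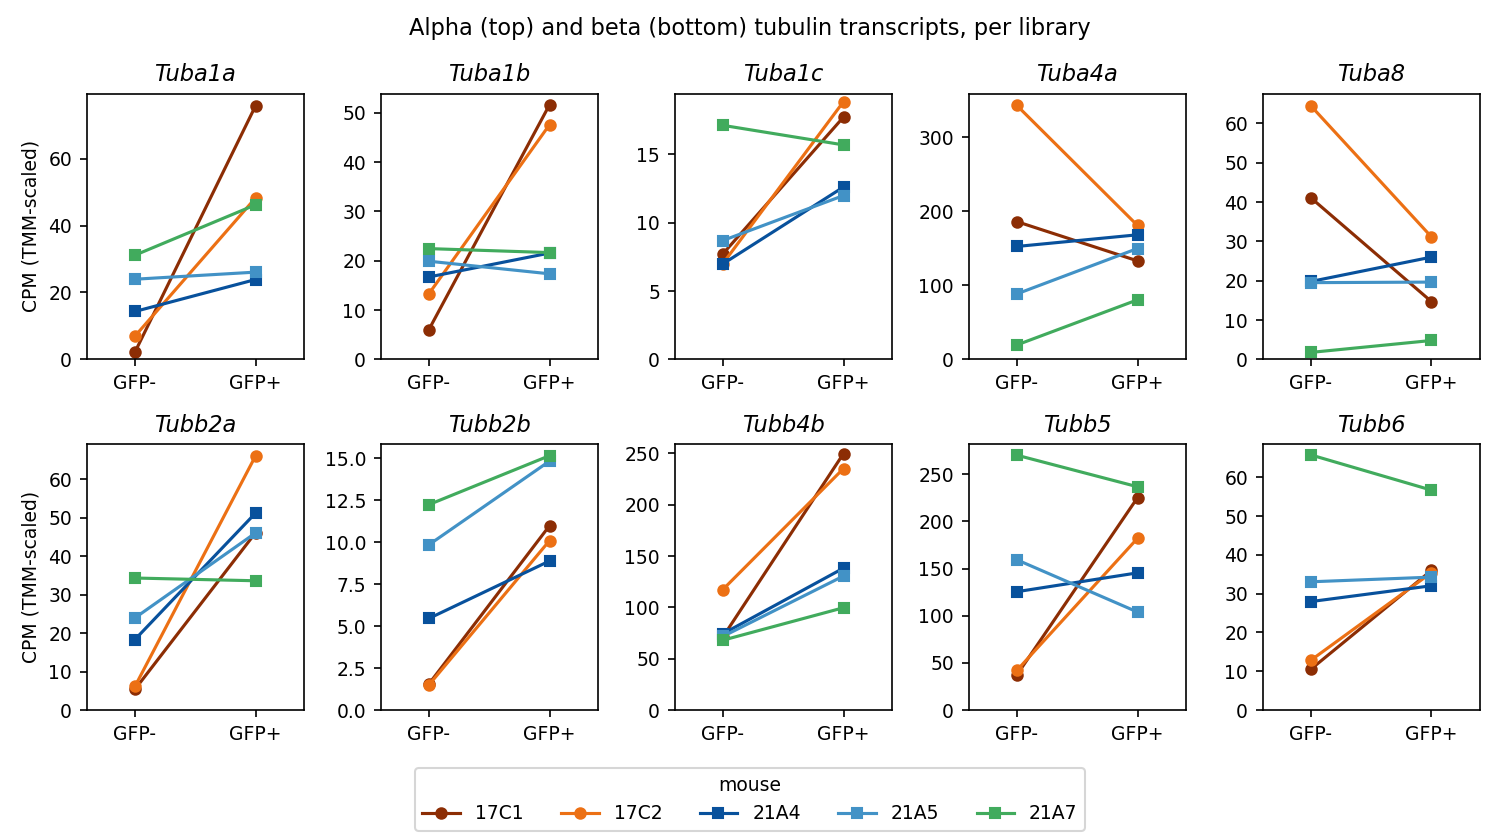
Level in CPM (TMM-scaled, linear axis) of each of the 10 tubulin genes, with 1 point per library and a line joining the GFP- and GFP+ libraries of the same mouse. The lines of 17C1 and 17C2 rise steeply for 8 genes and fall for Tuba4a and Tuba8, while those of 21A4, 21A5 and 21A7 are flatter for these 8 genes.

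Set against all genes, 0 of 10 tubulin genes passed an adjusted p of 0.05 in edgeR, where 0.0825% of the 12115 genes did, and 0 of 10 with the mouse as a block, where 0.858% did. At an unadjusted p under 0.05, 5 of 10 were higher in GFP+ without the block (Tuba1a, Tuba1b, Tuba1c, Tubb2a and Tubb4b), against 4.8% of all genes. With the block 5 of 10 were (Tuba1a, Tuba1c, Tubb2a, Tubb2b and Tubb4b), against 7.74%. The count without the block was 2 when mouse 17C1, 17C2 or 21A4, the GFP+ library of 17C1, or the GFP- one of 17C2 or 21A4 was left out, and 3 when either GFP+ of 17C2 or GFP- of 17C1 was. With the block it was 2 without mouse 17C2 and 3 without 21A4. Near-identical copies can share reads, so the 5 genes are not 5 separate results. With these copies summed, 0 of 7 were called and 3 of 7 had an unadjusted edgeR p under 0.05 in either fit. Of 12112 genes, 990 did without the block and 1858 with it, in either direction. Without the block, the sum of Tuba1a, Tuba1b and Tuba1c stood at 1.16 (edgeR adjusted p = 0.519). The sum of Tubb2a and Tubb2b stood at 1.35 (edgeR adjusted p = 0.502). DESeq2 called 0 of 10 and 1.69% of all genes, and 4 of 10 had an unadjusted p under 0.05, as did 11.1% of all genes. Limma voom with quality weights called 1, Tubb2a, at a log2 fold change of 1.499 (limma adjusted p = 0.0300), and 2.77% of all genes. Tuba1a, Tubb2b and Tubb4b were higher in 5 of 5 mice, as were 9.14% of all genes. No tubulin gene had all GFP+ libraries above all GFP- libraries, which 1.54% of all genes had. The median log2 fold change of the 10 was 0.82, beside -0.07 over all tested genes, and 0.87 beside -0.04 with the block. The direction rests on the scaling: by library size alone, which moved the median of all genes to -1.24, Tubb4b alone stayed above 0, at 0.02, and 8 of the 10 still lay above that median, all but Tubb5 and Tubb6. Scaled to the 12 cardiomyocyte markers, which moved the median of all genes to -0.65, Tuba1a (0.26), Tuba1b (0.02), Tuba4a (0.24), Tubb2a (0.02) and Tubb4b (0.52) were above 0 and the other 5 below.

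Within the identifier series the outcome divided. In 17C1 and 17C2 alone, 8 of 10 tubulin genes were higher in GFP+ past the threshold, where 9.53% of genes were called in either direction. Log2 fold changes (edgeR, 2 libraries against 2) were 3.80 for Tuba1a (adjusted p = 0.00309), 3.29 for Tubb2a (adjusted p = 0.000891), 2.79 for Tubb2b (adjusted p = 0.0130) and 2.38 for Tuba1b (adjusted p = 0.00641). They were 2.37 for Tubb5 (edgeR adjusted p = 0.00118), 1.62 for Tubb6 (adjusted p = 0.00983), 1.37 for Tubb4b (adjusted p = 0.0186) and 1.32 for Tuba1c (adjusted p = 0.0453). Tuba4a at -0.74 (edgeR adjusted p = 0.184) and Tuba8 at -1.19 (adjusted p = 0.0806) did not pass. With the block, which called 13.6% of genes, the same 8 were called higher and Tuba8 lower, at -1.25 (edgeR adjusted p = 0.00402). The calls include Tuba1a, Tuba1b, Tuba1c, Tubb2a and Tubb2b, near-identical copies that can share reads, so they are not all separate results. In the GFP- libraries of these mice Tuba1a rested on 36 and 88 counts and Tubb2b on 26 and 19. Marker levels moved with the group in the same mice. In 17C1 and 17C2 the cardiomyocyte markers made 3.17% and 4.75% of non-mitochondrial counts in GFP+ against 8.92% and 9.96% in GFP-. The mesothelial markers made 0.0195% and 0.0388% against 0.000399% and 0.00325%, and the Schwann cell markers 0.00207% and 0.00256% against 0.000119% and 0.000206%. Fibroblast markers were at or under 0.0806% in all 4 libraries. The part of these cell types in the 8 calls was not tested.

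In 21A4, 21A5 and 21A7 alone, 0 of 10 tubulin genes were called by edgeR in either fit, where the fit without the block called 0% of genes and the blocked fit 6.72%. At an unadjusted p under 0.05 there were 2 tubulin genes without the block (Tubb2a and Tubb4b) and 4 with it (Tuba1a, Tuba4a, Tubb2a and Tubb4b), all higher in GFP+, beside 12.3% (1621 of 13221) and 24.2% of all genes in either direction. Log2 fold changes without the block were 0.81 for Tubb4b, 0.80 for Tubb2a, 0.63 for Tuba4a, 0.52 for Tubb2b, 0.49 for Tuba1a, 0.32 for Tuba1c, 0.32 for Tuba8, 0.06 for Tuba1b, -0.02 for Tubb6 and -0.17 for Tubb5. The order depended on the fit: without the block Tubb4b and Tubb2a had the largest values, and with it Tuba4a did, at 0.99, ahead of Tubb2a at 0.82 and Tubb4b at 0.79.

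The difference between the series was tested directly by a series by group term. Without the block it called 0 of 10 tubulin genes and 0% of all genes, with 1713 genes at an unadjusted p under 0.05 in edgeR. With the block it called 7 of 10, where 7.62% of all genes were called. In log2 units, 21A minus 17C, these were Tuba1a at -3.44 (edgeR adjusted p = 0.0234), Tubb5 at -2.55 (adjusted p = 0.0192), Tubb2a at -2.46 (adjusted p = 0.0237) and Tuba1b at -2.42 (adjusted p = 0.0234). The others were Tubb2b at -2.25 (edgeR adjusted p = 0.0303), Tubb6 at -1.61 (adjusted p = 0.0271) and Tuba8 at 1.82 (adjusted p = 0.0395). Among these, Tuba1a with Tuba1b and Tubb2a with Tubb2b are copies that can share reads. The term did not pass for Tuba1c at -0.92 (edgeR adjusted p = 0.225), Tubb4b at -0.64 (adjusted p = 0.320) and Tuba4a at 1.67 (adjusted p = 0.0829). Fibroblast markers differed between the series in the same GFP- libraries, as given above, and the labels do not say what separates the series. With a covariate made of the mean log2 level of markers of fibroblasts, macrophages, endothelial and mural cells, 0 of 10 and 0.479% of all genes were called. At an unadjusted p under 0.05 in edgeR there were 8 of 10, beside 14.5% of all genes in either direction. Tubb2b then stood at 1.94 (edgeR adjusted p = 0.0520) and Tubb2a at 2.17 (edgeR adjusted p = 0.0655).

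**Figure D2:**
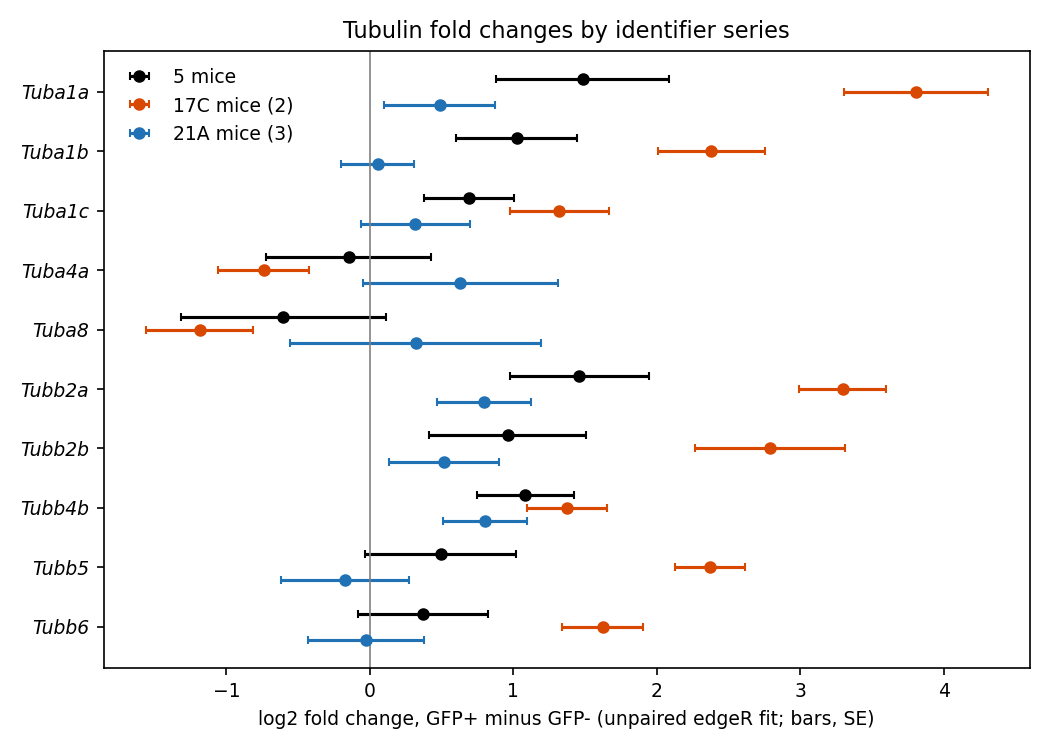
Log2 fold change, GFP+ minus GFP-, of each of the 10 tubulin genes from the unpaired edgeR fit (bars, SE). Points are the fits over 5 mice, over the 2 mice of the 17C series and over the 3 mice of the 21A series. For 8 genes the 17C value lies above the 21A value, and for Tuba4a and Tuba8 it lies below. For Tubb4b the values are 1.37 in the 17C mice and 0.81 in the 21A mice.

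Shares within the alpha or beta family do not depend on library scaling, and they show how each family's counts were divided. Counts were divided by the summed counts of the 5 alpha or the 5 beta genes in the same library, with no correction for length. Tuba4a made most of the alpha counts in 7 of the 10 libraries, at 45.4%, 55.4%, 66.7%, 66.6% and 47.7% in GFP+ and 76.6%, 78.9%, 72.5%, 55.1% and 21.2% in GFP-. Divided by the length of all annotated exons first, Tuba4a made most of alpha in 5 libraries, and in GFP+ of 17C1 and 21A7 it fell below Tuba1a (30.0% against 35.1%, and 32.02% against 37.7%). In counts, the GFP- share of Tuba4a ran from the highest to the lowest of the 10 libraries, in 17C2 and 21A7. Tuba1a was the mirror of this, at 25.9%, 14.8%, 9.46%, 11.6% and 27.4% of alpha counts in GFP+ and 0.886%, 1.59%, 6.80%, 14.9% and 33.9% in GFP-. The 3 genes with an encoded tyrosine together made 23.0% to 49.6% of alpha counts in GFP+ and 6.26% to 76.9% in GFP-, so the GFP- range enclosed the GFP+ range.

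In the beta family Tubb4b and Tubb5 were the main isotypes in both groups. Tubb4b made 44.0%, 44.5%, 36.8%, 39.6% and 22.6% of beta counts in GFP+ and 56.5%, 65.3%, 29.5%, 24.1% and 15.1% in GFP-. Tubb5 made 39.6%, 34.4%, 38.7%, 31.5% and 53.6% against 29.6%, 23.4%, 49.9%, 53.5% and 59.97%. In GFP- libraries Tubb4b led in the 17C mice and Tubb5 in the 21A mice, whereas in GFP+ libraries Tubb4b led in 17C1, 17C2 and 21A5.

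Tubb2a had the clearest shift of share. It made 8.12%, 12.5%, 13.6%, 14.0% and 7.61% of beta counts in GFP+ and 4.28%, 3.41%, 7.29%, 8.04% and 7.62% in GFP-, a mean of 11.2% ± 3.07 against 6.13% ± 2.12 (SD, n = 5 each). The exact two-sided permutation test of this difference gave p = 0.0238 and exact sign flips within mice p = 0.125. Of the 10 shares tested this was the single one with a permutation p under 0.05, and the p-values are not adjusted. The smallest that the permutation test can give is 0.00794, and sign flips over 5 mice cannot go below 0.0625. Without mouse 21A7 the GFP+ and GFP- shares of Tubb2a did not overlap, the 1 share for which that held. Tubb2a and Tubb2b summed, which avoids the question of how reads were split between the copies, made 10.1% to 18.5% of beta counts in GFP+ and 4.25% to 11.4% in GFP-, higher in GFP+ in 5 of 5 mice.

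Smaller shifts had the same sign in each mouse for Tubb2b and Tubb6. Tubb2b made 2.83% ± 1.12 of beta counts in GFP+ and 2.05% ± 1.02 in GFP- (SD, n = 5), higher in 5 of 5 mice (exact sign flips p = 0.0625, exact permutation p = 0.286). Tubb6 made 8.96% ± 2.701 against 10.5% ± 2.89, lower in GFP+ in 5 of 5 mice (exact sign flips p = 0.0625, exact permutation p = 0.413). Over the 5 mice 0 of 10 shares separated the groups. Within the 17C mice 10 of 10 did and within the 21A mice 0 of 10. These counts are not on a like footing. With 2 libraries against 2, a share separates by chance far more often than with 3 against 3 or 5 against 5. The shares of a family also add up to a fixed whole, so they are not separate outcomes. In the 17C mice the mean shift was 27.3 points down for Tuba4a, from 77.7% to 50.4%, and 19.1 points up for Tuba1a, from 1.24% to 20.3%.

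The sums of each family overlapped between the groups as well. Alpha counts were 0.382 to 0.682 times beta counts in GFP+ libraries and 0.204 to 2.42 times in GFP- libraries, with the highest GFP- ratios in 17C2 and 17C1 and the lowest in 21A7. Summed beta tubulin reached 329.6 to 568 CPM in GFP+ and 126 to 450.5 CPM in GFP-, higher in 4 of 5 mice, and summed alpha tubulin 169 to 327 CPM and 92.0 to 435 CPM, also higher in 4 of 5. All 10 genes together took 0.122% to 0.167% of non-mitochondrial counts in GFP+ and 0.0665% to 0.196% in GFP-.

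**Figure D3:**
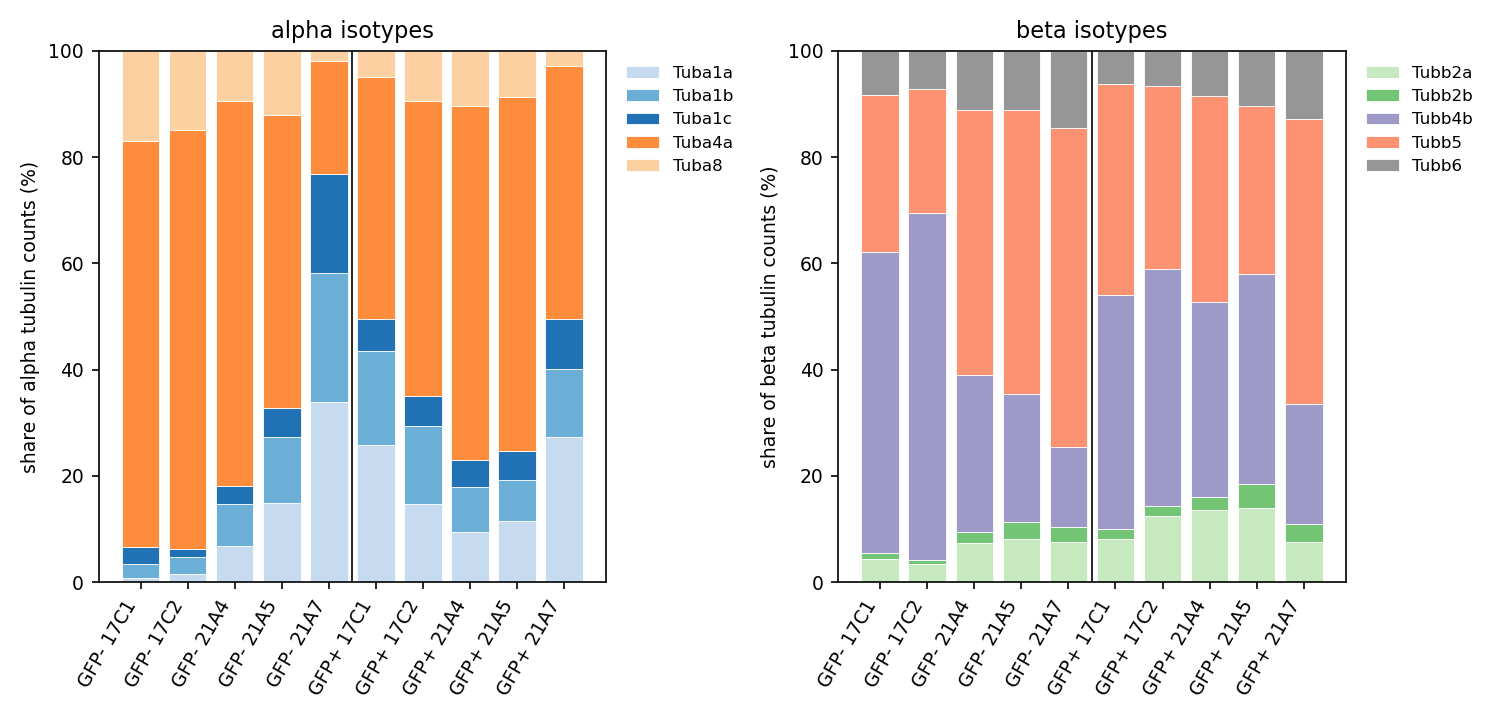
Share of alpha (left) and beta (right) tubulin counts taken by each isotype, as stacked bars from 0 to 100%, with 1 bar per library. GFP+ bars keep a Tuba4a share of 45.4% to 66.7%, while GFP- bars run from a Tuba4a share of 78.9% in 17C2 to 21.2% in 21A7 and from a Tubb5 share of 23.4% to 59.97%.

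Between genes, levels are compared as CPM per kilobase of coding sequence. Coding lengths were all 1335 to 1356 bases, so this divisor hardly corrects for transcript length. Annotated exons ran from 1610 bases in Tubb2a to 3701 in Tuba4a. In GFP+ libraries the order was Tubb5 at 134 ± 41.4 (SD, n = 5), Tubb4b at 128 ± 50.3, Tuba4a at 106 ± 29.1, Tubb2a at 36.3 ± 8.76, Tuba1a at 32.5 ± 15.5, Tubb6 at 28.9 ± 7.49, Tuba1b at 23.6 ± 12.0, Tuba8 at 14.3 ± 7.56, Tuba1c at 11.4 ± 2.25 and Tubb2b at 8.96 ± 2.13. Neighbours in this order differed by less than the larger of their SDs, except for the step from Tuba4a to Tubb2a and the small step from Tuba1c to Tubb2b. In GFP- libraries Tuba4a at 117 ± 90.2, Tubb5 at 95.0 ± 71.9 and Tubb4b at 60.2 ± 15.5 again formed the upper tier. Below them came Tubb6 at 22.3 ± 16.5, Tuba8 at 21.7 ± 17.8, Tubb2a at 13.2 ± 9.16, Tuba1a at 11.6 ± 8.80, Tuba1b at 11.6 ± 4.72, Tuba1c at 7.04 ± 3.19 and Tubb2b at 4.57 ± 3.62. The step from Tubb4b to Tubb6 was the one larger than both SDs. Divided by the length of all annotated exons instead, Tubb4b came first in GFP+ at 81.7, since the exons of Tubb5 and Tuba4a span more bases. Tubb5 followed at 53.7 ± 16.6, Tuba4a at 38.5 ± 10.6 and Tubb2a at 30.2 ± 7.28. The step from Tuba4a to Tubb2a was then smaller than the SD of Tuba4a. In GFP- Tuba4a at 42.7 ± 32.8, Tubb4b at 38.6 ± 9.93 and Tubb5 at 38.1 ± 28.8 stayed first, with Tuba8 next at 13.0 ± 10.6.

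Several members varied together across the 10 libraries. On log2 CPM, Tuba4a and Tuba8 correlated at Pearson r = 0.94 (Spearman rho = 0.99), Tubb5 and Tubb6 at 0.96 (rho = 0.93) and Tuba1a and Tuba1b at 0.93 (rho = 0.94), while Tuba8 and Tubb6 ran opposite at -0.84 (rho = -0.84). For Tubb2a and Tubb2b r was 0.92 but rho 0.53. Tuba1a with Tuba1b and Tubb2a with Tubb2b are near-identical copies that can share reads, and the 2 libraries of a mouse are not independent points. Tuba4a and Tuba8 also followed the mean log2 level of the 12 cardiomyocyte markers, with r = 0.95 (rho = 0.90) and 0.97 (rho = 0.92). Tubb5 and Tubb6 ran against it, with r = -0.79 (rho = -0.94) and -0.85 (rho = -0.90). In the 6 libraries of the 21A mice alone r was 0.97, 0.98, -0.92 and -0.94 for these 4 genes, and without both libraries of mouse 21A7, the farthest from the median, it was 0.83, 0.86, -0.90 and -0.82 over 8 libraries. The 4 libraries of the 17C mice are too few for a value. For Tubb4b r was 0.20, and -0.35 without mouse 21A7. Other members also had negative r, so this was not particular to Tubb5 and Tubb6. It was -0.57 for Tuba1a (rho = -0.77), -0.39 for Tuba1b (rho = -0.76) and -0.63 for Tuba1c (rho = -0.62). For Tubb2a it was -0.45 (rho = -0.35) and for Tubb2b -0.65 (rho = -0.76). Without mouse 21A7 these r were -0.82, -0.75, -0.57, -0.69 and -0.80 in that order. In the 21A mice alone they were -0.60, -0.65, -0.66, 0.05 and -0.43. These are descriptions across libraries that differ in cardiomyocyte marker level, and no test was attached.

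**Figure D4:**
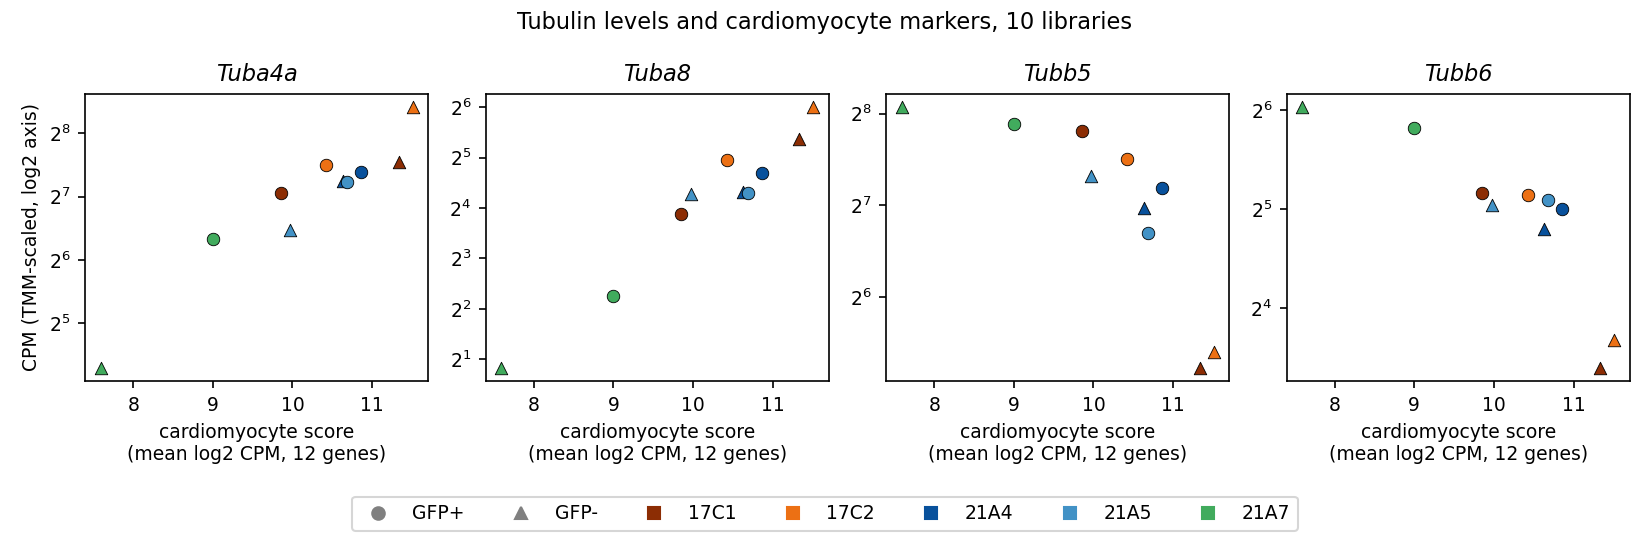
Log2 CPM of Tuba4a, Tuba8, Tubb5 and Tubb6 against the mean log2 CPM of the 12 cardiomyocyte markers, with 1 point per library. Tuba4a and Tuba8 climb with the markers (r = 0.95 and 0.97) and Tubb5 and Tubb6 decline (r = -0.79 and -0.85), with both libraries of mouse 21A7 at the low end of the marker axis.

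The genes whose pattern was most like that of Tuba4a, the alpha gene with the highest mean, were Trp53inp2 (r = 0.985), Fbxo32 (r = 0.979), a ubiquitin ligase of muscle atrophy, and the mitochondrial enzyme gene Mcee (r = 0.978). Most like Tubb5, the beta gene with the highest mean, were Clic1 (r = 0.976), Csrp1 (r = 0.963) and the translation elongation factor Eef1a1 (r = 0.962). Likeness is the Pearson correlation of log2 CPM over the 10 libraries, among 4759 genes with a mean of at least 10 CPM.

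Of 10 further tubulin genes, 4 passed the filter and 0 were called. Tubb3, best known as the neuronal beta isotype, had 27.6, 27.7, 13.6, 16.8 and 13.6 CPM in GFP+ libraries and 0.12, 0.39, 2.54, 8.36 and 9.29 CPM in GFP- libraries. Unlike the 10 genes above, Tubb3 had all GFP+ libraries above all GFP- libraries, as did 1.54% of all genes. It was higher in GFP+ in 5 of 5 mice, as were 9.14% of all genes. Only 2 and 5 counts lay behind the GFP- values of the 17C mice. In log2 units it differed by 2.24 ± 0.85 (edgeR adjusted p = 0.536), or 2.94 ± 1.02 with the block (edgeR adjusted p = 0.226). The others were at -1.39 ± 1.18 for Tubb4a (edgeR adjusted p = 0.783), -0.31 ± 0.27 for the nucleating gamma tubulin Tubg1 (adjusted p = 0.789) and -0.15 ± 0.56 for the delta tubulin Tubd1 (adjusted p = 0.956).

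Genes that handle tubulin were read from lists of their roles, and without the block 0 of them were called. Median log2 fold changes were 0.84 for the acetylation list, 0.48 for glutamylation, 0.40 for folding, 0.33 for dynein, 0.27 for kinesins, -0.18 for plus-end genes, -0.22 for lattice-binding proteins, -0.27 for detyrosination, -0.28 for nucleation, -0.29 for severing and -0.85 for mitosis, beside -0.07 over all genes. The 21 genes of tubulin folding cover the CCT chaperonin, prefoldin and the tubulin cofactors. Without the block 4 of them had an unadjusted edgeR p under 0.05, all higher in GFP+, as were 4.8% of all genes. With the block 8 did, all higher, as were 7.74% of all genes. Cct8, a chaperonin subunit, averaged 62.0 CPM in GFP+ and 32.1 CPM in GFP- (0.95 ± 0.27, edgeR adjusted p = 0.321) and Cct3 80.1 and 42.0 CPM (0.93 ± 0.31, edgeR adjusted p = 0.451), each higher in 5 of 5 mice. Tcp1 stood at 0.67 ± 0.35 (edgeR adjusted p = 0.652) and Cct5 at 0.40 ± 0.26 (edgeR adjusted p = 0.709). Ttc5, the factor of tubulin mRNA decay named above, was low, at 4.37 CPM in GFP+ and 2.41 CPM in GFP- (0.84 ± 0.54, edgeR adjusted p = 0.709).

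In the lists of tubulin modification, Ttll12, a member of the tyrosine ligase-like family, had 16.96, 11.6, 14.3, 12.8 and 17.6 CPM in GFP+ libraries. It had 4.13, 3.39, 5.17, 5.07 and 9.62 CPM in GFP- libraries. All GFP+ libraries lay above all GFP- libraries, as for 1.54% of all genes. In the lists of genes that handle tubulin, Ttll12 was the 1 called with the block, at 1.49 ± 0.26 (edgeR adjusted p = 0.0449). These lists tested 21 folding, 11 glutamylation, 17 lattice-binding, 17 plus-end, 6 severing and 13 kinesin genes. They also tested 18 dynein, 16 nucleation, 12 mitosis, 3 detyrosination and 3 acetylation genes, and Ttc5. Over that many genes 1 call is near the 0.858% of all genes called. Without the block Ttll12 stood at 1.41 ± 0.32 (edgeR adjusted p = 0.146). Ttll7, a glutamylase of beta tubulin, also did not overlap, with means of 9.36 CPM in GFP+ and 2.66 CPM in GFP- (1.82 ± 0.39, edgeR adjusted p = 0.121, or 1.83 ± 0.39 with the block, adjusted p = 0.0776). Of the 11 genes tested in the glutamylation list, these 2 had an unadjusted p under 0.05, both higher, as were 4.8% of all genes. Agtpbp1, which trims glutamates, was at -0.76 ± 0.47 (edgeR adjusted p = 0.695). In the detyrosination list 3 genes were tested, with 0 at an unadjusted p under 0.05 without the block. With it there was 1, Vash1, lower in GFP+, as were 7.59% of all genes. Vash1, which removes the final tyrosine, averaged 4.33 and 7.08 CPM (-0.72 ± 0.69, edgeR adjusted p = 0.807, or -0.90 ± 0.36 with the block, adjusted p = 0.290) and was lower in GFP+ in 4 of 5 mice. Ttl, which restores the tyrosine, averaged 9.05 and 10.9 CPM (-0.27 ± 0.37, edgeR adjusted p = 0.871). Of 3 acetylation genes the deacetylase Hdac6 was at 1.07 ± 0.37 (edgeR adjusted p = 0.489), the acetylase Atat1 at 0.84 ± 0.58 (adjusted p = 0.734) and Sirt2 at 0.05 ± 0.33 (adjusted p = 0.975).

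Of the 17 lattice-binding proteins tested, 0 had an unadjusted p under 0.05 without the block. With it 2 did, both higher in GFP+, as were 7.74% of all genes. Map1b, which binds microtubules in growing axons, averaged 90.8 CPM in GFP+ and 34.7 CPM in GFP- (1.39 ± 0.67, edgeR adjusted p = 0.622, or 1.86 ± 0.43 with the block, adjusted p = 0.100), and Map4, the main such protein of heart muscle, 144 and 142 CPM (0.02 ± 0.37, edgeR adjusted p = 0.990). Of the 17 plus-end and catastrophe genes, the 2 with an unadjusted p under 0.05 were both lower in GFP+, as were 3.38% of all genes. These were Stmn1, which sequesters dimers, at -1.44 ± 0.57 (edgeR adjusted p = 0.550) and the polymerase Ckap5 at -0.65 ± 0.29 (adjusted p = 0.600). With the block 4 had an unadjusted p under 0.05, Stmn1 and Ckap5 lower and the end-binding genes Mapre2 and Mapre3 higher. Of all genes 7.59% were lower and 7.74% higher. The 6 severing genes tested had 0.

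Motor genes had 0 called. Of 13 kinesin genes 2 had an unadjusted p under 0.05, both higher, as were 4.8% of all genes. These were the light chain Klc1, at 51.1 against 25.4 CPM (1.006 ± 0.30, edgeR adjusted p = 0.359), and the heavy chain Kif5b, at 91.8 against 51.9 CPM (0.82 ± 0.35, edgeR adjusted p = 0.581). Of 18 dynein and dynactin genes 5 had an unadjusted p under 0.05, all higher, beside the same 4.8%. Among them were Dynll1 at 1.37 ± 0.52 (edgeR adjusted p = 0.528) and Actr1a, the dynactin filament subunit, at 0.60 ± 0.23 (edgeR adjusted p = 0.549). All GFP+ libraries lay above all GFP- libraries for Actr1a, as for 1.54% of all genes. Of the 16 nucleation genes 1 had an unadjusted p under 0.05, lower in GFP+, as were 3.38% of all genes. This was Pcnt, a centrosomal scaffold, at -0.93 ± 0.36 (edgeR adjusted p = 0.549). Akap6, which organises microtubules at the nuclear envelope of muscle cells, was at 0.24 ± 0.50 (edgeR adjusted p = 0.916). Of 12 genes of mitosis, markers of cell division, 12 had negative log2 fold changes, where 5482 of 12115 tested genes had positive ones. Of these 12 genes 0 had an unadjusted p under 0.05, with Mki67 at -1.67 ± 1.34 (edgeR adjusted p = 0.766). In mouse 17C1 the log2 ratio was above 0 for Mki67 (1.75), Top2a (3.24) and Kif23 (1.88) and below 0 for Aurkb (-0.12). With the block 2 of the 12 had an unadjusted p under 0.05, Mki67 and Aurkb, both lower, as were 7.59% of all genes. Mki67 had 0.299 and 2.13 CPM in the GFP- libraries of the 17C mice and 57.7, 65.9 and 122 CPM in those of the 21A mice, the libraries with 2.62% to 6.30% fibroblast markers, and the part of other cells in this was not tested.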

How the data were processed

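Per the labels' protocols, total RNA of sorted cells was turned into amplified cDNA with a SMARTer kit, and Nextera XT, which does not mark strand, gave the libraries. No molecular identifiers are named, so intervals and tests treat reads of PCR copies as separate reads. The deposited values are raw read counts per gene in 1 table of 10 libraries, not normalized by the authors. The submitters' processing notes list featureCounts, Subread 2.0.1, STAR 2.7.9a, fastp 0.23.1 and the build GRCm39. Not given in the sources used here are the annotation, the strand setting, the read length and how multi-mapping reads were treated. No genome coordinates were used, and sequences came from GENCODE M21 transcripts of GRCm38, matched by symbol for 10 of 10 genes; those of some genes are not reported here.

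Groups came from the cell type labels and titles. Libraries of 1 mouse share an animal identifier, which pairs them. Subtracting group means, the 2 libraries of a mouse correlated over genes at r = 0.292, 0.397, 0.161, 0.0741 and 0.637 for 17C1, 17C2, 21A4, 21A5 and 21A7. No 2 libraries held identical values. The labels do not say how cells of a mouse were divided beyond the sort. Without the block, p-values treat the 10 libraries as separate, although 2 come from each mouse. With the block they rest on the spread of the ratio between mice. Fits within a series rest on 2 mice (17C) or 3 mice (21A), with the variance of a gene drawn partly from other genes.

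The two-sided quasi-likelihood test of edgeR 4.0.16 (R 4.3.3) was run on the counts with TMM factors after filterByExpr, with Benjamini-Hochberg adjustment over 12115 genes and a threshold of 0.05, without and with the mouse as a block. SE was taken as the size of the log2 fold change over the root of F, and log2 CPM used a prior count of 2. Isotype shares were compared with exact permutations over 252 regroupings and exact sign flips. The fits were tested on simulated data. Total counts of 12244373 to 38879965, of which 3417972 to 16918067 are not mitochondrial, set the precision. Alternatives were DESeq2 1.42.0, limma 3.58.1 voom, other scalings and filters, each series alone, copies summed, and each mouse or library left out. Scaling to cardiomyocyte markers, the covariate of other cell types, the series by group term and shares per exon length were added after seeing the data.

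Named were the 10 tubulin genes, every further tubulin gene past the filter, the 2 genes of smallest p and the 2 of highest mean in each list of related genes (of which the text gives a selection), and the 3 genes most correlated with the highest alpha and beta gene. Stk16, the genes at 0 counts and Ttc5 were added for context. The members, lists and rules were chosen with earlier results of these data known.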

Additional observations from a re-analysis of the deposited data

Results flagged for a closer look

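Several single libraries stood apart from the other 4 of their group by Dixon's gap test, which chance alone meets in about 1 of 20 groups. Tuba1c reached 17.1 CPM in the GFP- library of mouse 21A7, while the other GFP- libraries lay between 6.98 and 8.69 CPM. Its share of alpha counts was also highest in mouse 21A7, at 18.6% in GFP- and 9.29% in GFP+. Tubb6 stood at 56.7 CPM in the GFP+ cells of that mouse, beside 32.04 to 35.995 CPM in the others. Tubb4b stood at 117 CPM in the GFP- library of 17C2, beside 68.0 to 74.3 CPM. The GFP+ library of 21A7 had the highest mitochondrial share (91.2%) and its GFP- library the lowest cardiomyocyte marker share (1.65%); their part in these values was not tested.

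The ratio of GFP+ to GFP- differed between the identifier series for 7 genes by the term fitted with the mouse as a block (log2 units, 21A minus 17C): Tuba1a at -3.44, Tuba1b at -2.42, Tubb2a at -2.46, Tubb2b at -2.25, Tubb5 at -2.55, Tubb6 at -1.61 and Tuba8 at 1.82. For Tuba4a every 17C mouse was lower and every 21A mouse higher in GFP+, and the term was 1.37 without the block and 1.67 with it, which did not pass (edgeR adjusted p = 0.507 and 0.0829).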

How the results depend on the processing

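The count of tubulin genes called was 0 and stayed 0 in edgeR with the replicate block (0 of 10), with DESeq2, under each other scaling and filter, and with each mouse or library left out (0 to 0). It was 1 with limma voom, 8 in the 17C mice alone and 9 there with the block. The block changed no call over the 5 mice. Shares apart numbered 0, and 0 to 1 with a mouse left out (1 without 21A7), 10 in the 17C mice alone. Library size alone turned the sign of Tuba1a (-0.27), Tuba1b (-0.45), Tuba1c (-0.80), Tubb2a (-0.12), Tubb2b (-0.69), Tubb5 (-1.34) and Tubb6 (-1.39). Scaling to cardiomyocyte markers did so for Tuba1c (-0.46), Tuba4a (0.24), Tubb2b (-0.32), Tubb5 (-0.76) and Tubb6 (-0.90). In the 21A mice alone the sign turned for Tuba4a (0.63, or 0.99 with the block), Tuba8 (0.32, or 0.58), Tubb5 (-0.17, or -0.18) and Tubb6 (-0.025). Tuba4a, at -0.15, became 0.28 with the replicate block, 0.29 with the block and near-identical copies summed, 0.15 in limma voom and 0.072 with the series as covariate, and ranged from -0.44 to 0.35 with a library or mouse left out. With the block and a mouse left out it ranged from -0.13 to 0.61 (0.51 without 17C1, 0.32 without 21A4, 0.13 without 21A5). Tuba8 became 0.016 in limma voom and, with the block, ranged from -0.53 to 0.17 with a mouse left out (0.17 without 17C1, 0.086 without 17C2). The cause of these turns was not tested. The number of tubulin genes at an unadjusted p under 0.05 was 5, but 2 with a filter of 5 CPM in 5 libraries, 8 with the covariate of other cell types, and 0 under library size alone or cardiomyocyte scaling. It was 3 of 7 with near-identical copies summed. Over all genes, 10 were called, 104 with the block, 205 by DESeq2, 336 by limma voom, 635 by library size alone and 38 without a filter. Depth limits Tuba1a and Tubb2b most: the GFP- libraries of 17C1 and 17C2 hold 36 and 88 counts of Tuba1a and 26 and 19 of Tubb2b.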
